A study of Sus scrofa with 4 samples.

Results

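The genes described here encode 4 ligands of the epidermal growth factor (EGF) receptor, *AREG*, *HBEGF*, *EGF* and *TGFA*, and the receptor itself, *EGFR*. They were found on a pig expression array as the non-control probes whose RefSeq transcript belongs to one of these genes, and 8 of 43603 probes and 5 of 2389 named genes met that rule. *EGF* had 3 probes, *AREG* had 2, and *HBEGF*, *TGFA* and *EGFR* had 1 each, every probe being spotted 1 time per array. RNA came from slices of ileum (the final section of the small intestine) of sow-fed piglets aged 16 days with Yorkshire × Landrace dams and Duroc sires. The low-gain group (low weight gain) had 2 arrays, a and b, each of RNA pooled from 2 piglets, and the high-gain group (high weight gain) had 2 arrays, a and b, each of RNA pooled from 3 piglets. The design text speaks of weight at birth, whereas the sample labels speak of weight gain, and the sample labels were followed. Whether a and b held separate pools or repeats of 1 pool is not stated in the labels, so errors and p-values cover array-to-array spread alone, and that spread may be technical. In slices of whole tissue, fewer cells of a type and less RNA per cell cannot be told apart.

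The EGF receptor is a tyrosine kinase at the cell surface that pairs up when a ligand binds and then signals through the RAS-MAP kinase, phosphatidylinositol 3-kinase and STAT routes. Its ligands are made as precursors that span the membrane, and metalloproteases such as ADAM17 and ADAM10 cut them free. In the intestine, signalling through this receptor is known for its part in crypt cell division and in the repair of the epithelium, and EGF also reaches suckling young in milk.

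The members were chosen with the differences between these groups already known, *AREG* being among the genes with a probe past the test. Their differences are therefore given as descriptions, without p-values. Levels are given as the processed spot signal of the scanner software and as log2 normalised signal, which is log2 of the processed signal minus the 75th percentile of the array's non-control spots. Levels of different probes cannot be compared with each other. Differences are low gain minus high gain on that log2 scale, with the standard error (SE) of a limma fit across all tested probes and 2 arrays per group.

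Across the arrays, the scanner's flag put 32835 to 33972 of 43803 non-control spots well above background, and no spot was saturated. The processed signal at the 75th percentile was 411 (a) and 465 (b) in low gain, against 483 (a) and 471 (b) in high gain. *FABP6*, which encodes the bile acid binding protein of ileal enterocytes, had a log2 normalised signal of 8.65 and 8.72 in low gain and 8.55 and 8.76 in high gain, so that this defining transcript of ileum was present on every array. Testing required a probe to be well above background throughout 1 group or more, a condition met by 33265 probes, among them 7 of the 8 described here. All 7 were well above background on all 4 arrays.

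Of the 7 tested probes, 1 passed the test at an adjusted p of 0.05 (limma, Benjamini-Hochberg over all tested probes), a probe of *AREG* that was higher in low gain. Over the whole array 0.0962% of probes passed in that direction, and 0.240% passed in either. The arrays of the groups did not overlap for 5 of the 7, against 54.5% of all tested probes. For 4 of the 7 probes, both low-gain arrays lay above both high-gain arrays, against 27.6% of the array, and for 1 both lay below, against 26.9%. These counts come from the contrast by which the genes were chosen. The 4 were both probes of *AREG*, the *EGFR* probe and 1 *EGF* probe, and the 1 was the *HBEGF* probe.

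**Figure D1:**
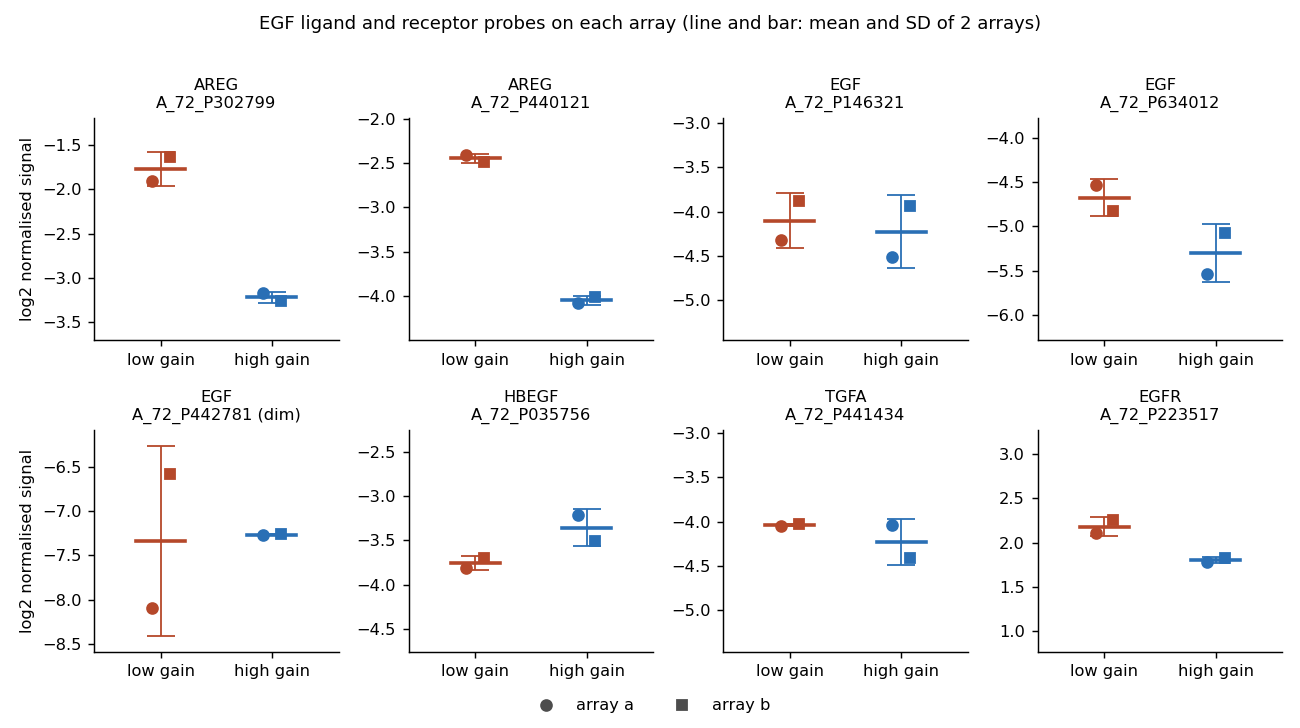
Log2 normalised signal (vertical axis, 2.5 log2 units in each panel) of the 8 probes on the low-gain and high-gain arrays, with circles for array a, squares for array b, and a line and bar for the mean and SD of 2 arrays. The groups stand well apart on both *AREG* probes, they are close on *EGFR*, *HBEGF* and 1 *EGF* probe, and they overlap on the rest. The panel marked dim is a probe not well above background on any array.

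*AREG* encodes amphiregulin, a ligand that binds the EGF receptor and that epithelial cells as well as several kinds of immune cell make. On probe A_72_P302799 the processed signal was 109 and 150 in low gain (arrays a and b), against 53.5 and 49.1 in high gain. Both low-gain arrays were brighter than both high-gain arrays before any scaling. In log2 normalised signal this was -1.91 and -1.64 in low gain and -3.17 and -3.26 in high gain. The means were -1.77 ± 0.19 in low gain and -3.22 ± 0.06 in high gain (SD, n = 2 arrays each), a log2 difference of 1.45 ± 0.14 (SE), or 2.72-fold. The lower low-gain array lay 1.27 above the higher high-gain array, whereas the largest gap within a group was 0.27.

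The other *AREG* probe, A_72_P440121, had a processed signal of 77.4 and 83.2 in low gain and of 28.5 and 29.2 in high gain. Its log2 normalised signal was -2.41 and -2.48 in low gain and -4.08 and -4.01 in high gain. The arrays of a group agreed more closely on this probe than on the first. The means were -2.45 ± 0.05 in low gain and -4.05 ± 0.05 in high gain (SD, n = 2 arrays each), a difference of 1.60 ± 0.10 (SE), or 3.04-fold. This was the probe that passed the test. The first probe stood above the second by 0.50 and 0.85 (log2) on the low-gain arrays and by 0.91 and 0.75 on the high-gain arrays. That offset was smallest on low-gain array a and varied by less than the difference between groups. Differences at least as large in size, in either direction, were found for 194 of the 33265 tested probes (0.583%) at the second probe and for 269 (0.809%) at the first.

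The *AREG* spots were dim, and their difference was smaller with another background correction, which also adds an offset. At A_72_P302799 the median pixel value of the spot was 128 and 169 in low gain and 72.0 and 70.0 in high gain, over local backgrounds of 18.0 and 18.5 in low gain and 19.0 and 17.0 in high gain. At A_72_P440121 it was 106 and 110.5 in low gain and 51.0 and 55.0 in high gain, over local backgrounds of 18.0 and 18.5 in low gain and 20.0 and 18.5 in high gain. High-gain spots were therefore 2.55 to 4.12 times as bright as their surroundings, and low-gain spots 5.89 to 9.14 times. The scanner software put the error of each of the 8 *AREG* signals at 10.9% or less. With normexp background correction, which adds an offset of 50 to every signal, the 2 probes differed by 0.88 and 0.81 after bright backgrounds had been replaced. With backgrounds as deposited they differed by 0.48 and 0.40. The parts of the correction and of the offset in these values were not told apart. The call of A_72_P440121 was lost on leaving out any single array, with differences of 1.57 to 1.64, and A_72_P302799 then differed by 1.31 to 1.58.

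**Figure D2:**
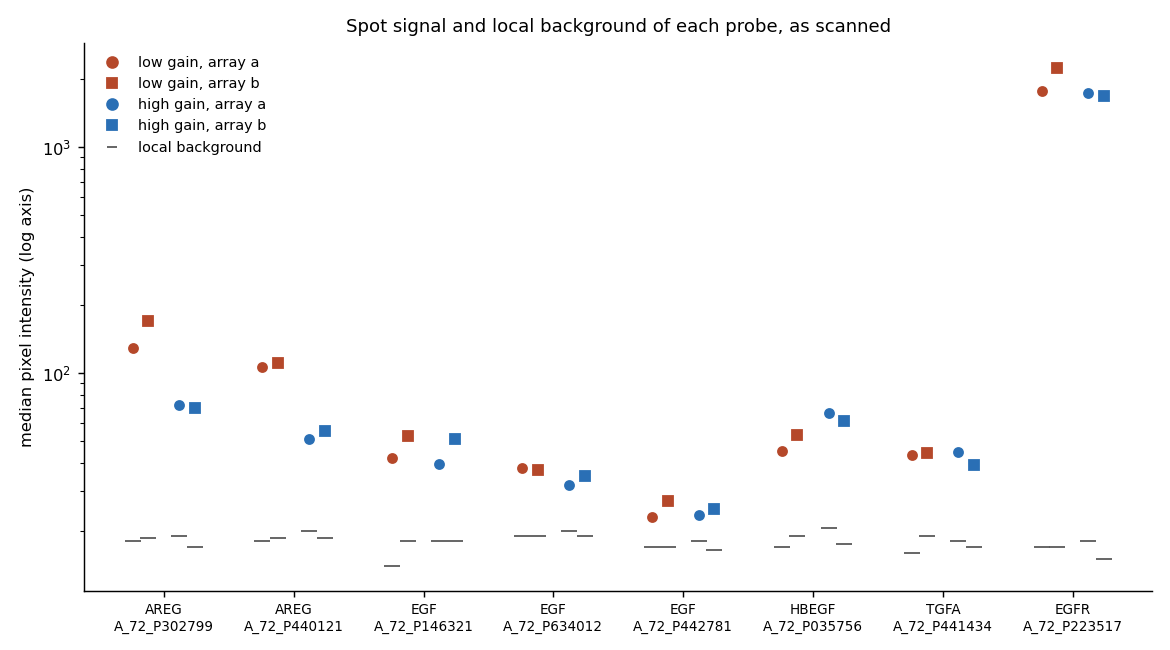
Median pixel intensity of each spot (vertical log axis) on the low-gain arrays (red) and high-gain arrays (blue), with the local background of each spot as a grey dash. *EGFR* lies between 1682 and 2237, whereas the ligand spots lie between 23.0 and 169, so that background makes up a larger part of the ligand signals.

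*EGFR* was the brightest of the 8 spots relative to its surroundings, 95.5 to 132 times the local background. Its probe A_72_P223517 had a processed signal of 1770 and 2218 in low gain, against 1661 and 1674 in high gain. Before scaling, low-gain array a exceeded the high-gain arrays by little, and array b by more. In log2 normalised signal the values were 2.11 and 2.25 in low gain and 1.78 and 1.83 in high gain. The means were 2.18 ± 0.10 in low gain and 1.81 ± 0.03 in high gain (SD, n = 2 arrays each), a difference of 0.38 ± 0.11 (SE), or 1.30-fold. The groups lay 0.28 apart, with a largest gap of 0.15 within a group. Differences at least as large were found for 26.5% of all tested probes. The difference ran from 0.28 to 0.38 under other treatments of the signal and from 0.30 to 0.45 without 1 array, and it passed the test under none of them.

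*HBEGF* encodes heparin-binding EGF-like growth factor, a ligand that binds ERBB4 as well as the EGF receptor. It was the only member with a lower mean in low gain on a probe above background. Probe A_72_P035756 had a processed signal of 29.3 and 35.7 in low gain and of 52.2 and 41.4 in high gain. Its log2 normalised signal was -3.81 and -3.70 in low gain and -3.21 and -3.51 in high gain. The means were -3.76 ± 0.07 in low gain and -3.36 ± 0.21 in high gain (SD, n = 2 arrays each), a difference of -0.40 ± 0.15 (SE). The groups did not overlap, but they lay 0.20 apart, less than the gap of 0.30 between the high-gain arrays. Differences of this size or more were found for 24.2% of tested probes. The difference was -0.25 without high-gain array a and -0.55 without high-gain array b. With normexp it was -0.12 with bright backgrounds replaced and -0.09 with backgrounds as deposited.

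*TGFA* encodes transforming growth factor alpha, a ligand of the EGF receptor that intestinal epithelium makes. Its probe A_72_P441434 had a processed signal of 24.8 and 28.5 in low gain and of 29.3 and 22.2 in high gain. In log2 normalised signal this was -4.05 and -4.03 in low gain and -4.04 and -4.41 in high gain. High-gain array b was the lowest, and high-gain array a lay between the low-gain arrays. The difference of 0.19 ± 0.16 (SE, n = 2 arrays per group) was close to 0.17, the error that the scanner's own estimates give for it. It was 0.37 without high-gain array a, 0.00 without high-gain array b and -0.01 with normexp and backgrounds as deposited.

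*EGF* encodes the precursor from which epidermal growth factor is cut, and its 3 probes did not agree. On probe A_72_P146321 the processed signal was 20.5 and 31.5 in low gain and 21.1 and 30.7 in high gain. The log2 normalised signal was -4.32 and -3.88 in low gain and -4.52 and -3.94 in high gain. Array b exceeded array a by 0.44 in low gain and by 0.58 in high gain, so that the arrays within each group differed by more than the groups did. The difference between groups was 0.13 ± 0.27 (SE, n = 2 arrays per group), and it turned to -0.09 without low-gain array b and to -0.16 without high-gain array a.

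On *EGF* probe A_72_P634012 the processed signal was 17.8 and 16.4 in low gain and 10.4 and 14.0 in high gain. The log2 normalised signal was -4.53 and -4.83 in low gain and -5.54 and -5.07 in high gain, with both low-gain arrays above both high-gain arrays. The difference was 0.63 ± 0.22 (SE, n = 2 arrays per group), with the groups 0.24 apart and the high-gain arrays 0.47 apart. It was 0.39 without high-gain array a and 0.86 without high-gain array b. Differences of this size or more were found for 9.82% of tested probes. The spots were only 1.60 to 2.00 times as bright as their surroundings, and with normexp the difference was 0.18 with bright backgrounds replaced and 0.06 with backgrounds as deposited. The difference between the 2 *EGF* probes was 0.21 (a) and 0.95 (b) on the low-gain arrays and 1.02 (a) and 1.13 (b) on the high-gain arrays, in log2 units. Low-gain array a stood apart in this respect.

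The remaining *EGF* probe, A_72_P442781, was not well above background on any of the 4 arrays. Its processed signal was 1.50 and 4.86 in low gain and 3.12 and 3.06 in high gain. The scanner's error estimate was 99.7% and 25.8% of the signal in low gain and 42.7% and 39.0% in high gain. No fold is given for it.

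**Figure D3:**
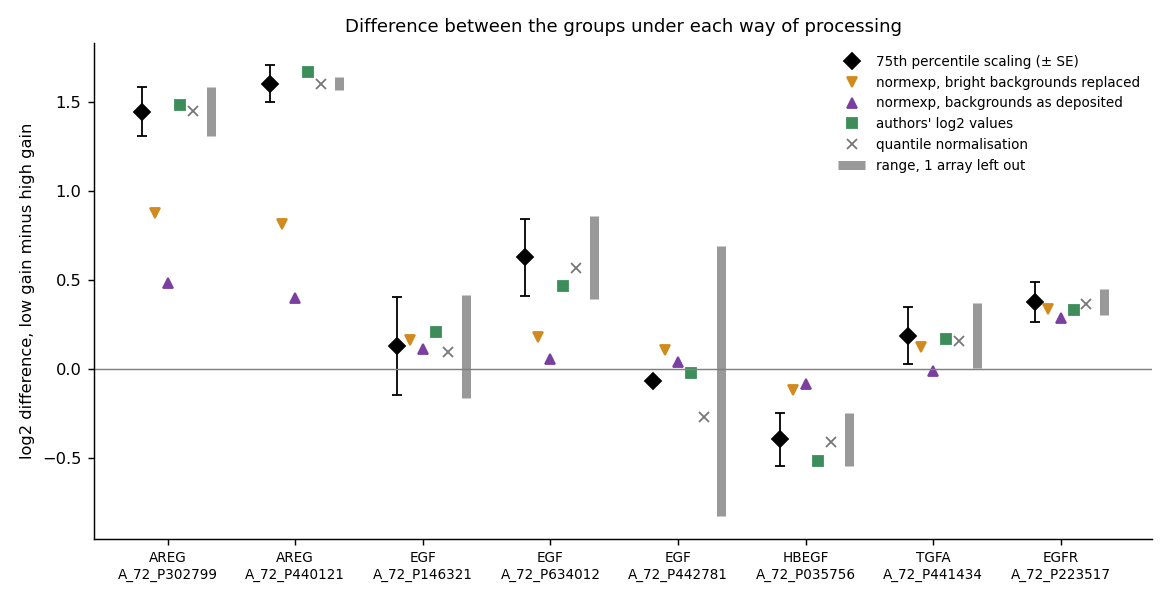
Log2 difference, low gain minus high gain (vertical axis), of the 8 probes under 5 treatments of the signal, with the SE as a bar on the value reported and a grey column for the range over fits without 1 array. Both *AREG* probes stay above 0 in all of them but are lower with normexp, at 0.40 to 0.88, while *EGFR* moves little and *TGFA* and 2 of the *EGF* probes cross 0.

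In order of the difference, the 7 tested probes ran from *AREG* (1.60 and 1.45) through *EGF* A_72_P634012 (0.63), *EGFR* (0.38), *TGFA* (0.19) and *EGF* A_72_P146321 (0.13) to *HBEGF* (-0.40). The steps between neighbours were not tested.

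Other genes of the pathway were described with lists by role, chosen with earlier results of these arrays known. Of 87 genes listed, 19 had a named probe, and all 19 were well above background on all 4 arrays. The other ligands of the family (*EREG*, *BTC*, *EPGN* and the neuregulins) and the receptors *ERBB2*, *ERBB3* and *ERBB4* had no named probe and were not analysed here. With 1 probe per gene, 0 of the 19 passed the test, against 0.417% of the 2158 named genes tested (limma, adjusted p of at least 0.184 for each of the 19). At an unadjusted p under 0.05 there were 4 of the 19, against 466 of all named genes (21.6%). *CD9* and *PTGS2* were higher and *STAT5A* and *PTPN1* lower in low gain among these 4. The median difference over the 19 genes was -0.02, against 0.02 over all named genes. The groups did not overlap for 12 of the 19, against 61.8% of all named genes, with low gain above high gain for 6 and below it for 6.

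Among genes for ligand processing, 3 had a probe, and the median difference was 0.25. *CD9*, a tetraspanin gene whose protein associates with the membrane-bound precursor of HBEGF, had a log2 normalised signal of 4.48 and 4.49 in low gain and 4.01 and 4.07 in high gain. The difference was 0.45 ± 0.10 (SE, limma adjusted p = 0.190), and its 4 other probes gave 0.11 to 0.40. *ADAM17*, the gene of the main protease that releases amphiregulin, differed by 0.25 ± 0.12 (adjusted p = 0.366) on its brightest probe, but its other 2 probes gave -0.62 and -0.31. *ADAM10*, whose product releases EGF from its precursor, differed by -0.11 ± 0.11 (adjusted p = 0.619).

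Genes that restrain the receptor or its signal had 3 members with a probe, and all 3 had a lower mean in low gain, with a median of -0.24. *PTPN1* encodes a tyrosine phosphatase that acts on the receptor. It had a log2 normalised signal of 1.36 and 1.35 in low gain and 1.63 and 1.61 in high gain, a difference of -0.27 ± 0.10 (SE, limma adjusted p = 0.271), with its other 2 probes at -0.49 and -0.30. *SOCS4* (-0.24 ± 0.16) and *SOCS5* (-0.11 ± 0.14), whose products are known to promote breakdown of the receptor, did not pass either. *SOCS5* was at 0.03 without low-gain array a and at 0.01 with normexp and bright backgrounds replaced.

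Adaptors and kinases downstream of the receptor were the best covered, with 9 genes from -0.63 to 0.10 and a median of -0.07. *STAT5A*, a signal transducer and transcription factor gene, had a log2 normalised signal of -2.80 and -2.69 in low gain and -1.96 and -2.27 in high gain. Its difference was -0.63 ± 0.15 (SE, limma adjusted p = 0.197), and its other probe gave -0.36. With normexp the *STAT5A* difference was -0.36 with bright backgrounds replaced and -0.25 with backgrounds as deposited. *AKT1*, a kinase gene of the phosphatidylinositol 3-kinase route, differed by -0.45 ± 0.20 (adjusted p = 0.323). It was -0.23 without high-gain array a and -0.67 without high-gain array b. *STAT3* differed by -0.34 ± 0.16 (adjusted p = 0.357), while its 3 other probes ran from -0.23 to 0.20.

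Early response genes that this receptor, among many stimuli, induces had 4 members with a probe, all with a higher mean in low gain and a median of 0.29. *PTGS2*, which encodes the inducible cyclooxygenase, had a log2 normalised signal of -1.52 and -1.33 in low gain and -2.27 and -2.01 in high gain. The difference was 0.72 ± 0.15 (SE, limma adjusted p = 0.184), with its other probe at 0.60. With normexp it was 0.48 with bright backgrounds replaced and 0.32 with backgrounds as deposited. *JUN* (0.29 ± 0.17, adjusted p = 0.427) and *MYC* (0.29 ± 0.15, adjusted p = 0.376), both transcription factor genes, did not pass, and 2 other probes of *MYC* gave 0.27 and 0.31. *FOS*, a partner of *JUN*, differed by 0.04 ± 0.20, with -1.80 and -2.00 in low gain and -1.72 and -2.16 in high gain, so that its groups overlapped.

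**Figure D4:**
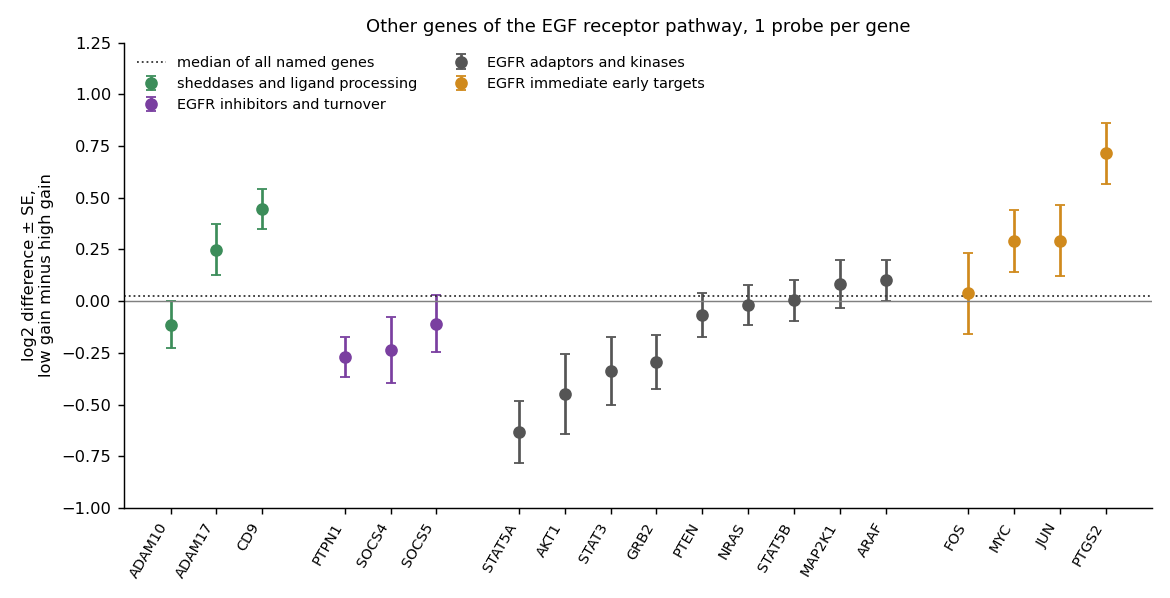
Log2 difference, low gain minus high gain, with its SE (vertical axis) for the 19 other pathway genes with a probe, grouped by role, and a dotted line for the median of all named genes (0.02). Values run from -0.63 (*STAT5A*) to 0.72 (*PTGS2*), and none passed the test.

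Marker genes of cell types that can express *AREG* or its relatives were measured on the same arrays, and their part in the *AREG* difference was not tested. All 3 measured general epithelial genes had a higher mean in low gain (*CDH1* 0.58, *KRT8* 0.44, *EPCAM* 0.16), and none passed the test (limma adjusted p from 0.162 to 0.532). The 2 other probes of *KRT8* gave -0.30 and 0.34. The summed linear signal of these genes, in multiples of the 75th percentile, was 159 and 166 in low gain and 126 and 130 in high gain. *KRT8* made up 61.3% of that sum. All 4 measured goblet cell genes had a higher mean in low gain. Their summed signal was 179 and 175 in low gain and 86.5 and 93.0 in high gain, of which *SPINK4* made up 54.5%. Of the 4 genes, *CLCA1*, a secreted goblet cell protein gene, passed the test (1.73 ± 0.10, limma adjusted p = 0.0393). *RETNLB*, *SPINK4* and *SPDEF* did not pass (adjusted p from 0.0561 to 0.196). Cytotoxic and natural killer cell genes had a higher mean for 5 of 6. Their summed signal was 14.1 and 14.7 in low gain and 6.44 and 6.55 in high gain, of which *GZMB* made up 76.5%. The granzyme gene *GZMK* passed (1.67 ± 0.10, limma adjusted p = 0.0383), and the other 5 did not (adjusted p from 0.0587 to 0.914).

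Lists of immune cells known to make amphiregulin held no gene that passed the test. In each of these lists 1 bright probe sets most of the sum, which is given as a level only. Mast cell genes, 4 of 6 measured, had a summed signal of 3.65 and 3.59 in low gain and 3.38 and 3.40 in high gain, of which *KIT* made up 60.4% (*GATA2* 0.27, *MCT7* 0.24, *MS4A2* 0.19, *KIT* -0.02). Regulatory T cell genes, all 4 measured, had 1.06 and 1.18 in low gain and 1.38 and 1.34 in high gain, of which *IL10* made up 90.8%. *FOXP3*, their defining factor, was at 0.94 ± 0.33 (limma adjusted p = 0.263) and *IL10* at -0.34. The *FOXP3* probe was dim, with a log2 normalised signal of -5.08 and -4.25 in low gain and -5.46 and -5.74 in high gain. It was the only 1 of 3 *FOXP3* probes that was tested. Type 2 lymphocyte genes, 4 of 6 measured, had 1.68 and 1.76 in low gain and 1.91 and 2.09 in high gain. Of that sum *GATA3* made up 86.6%. By gene, *IL4* was at 0.52, *IL13* at 0.33, *IL5* at -0.03 and *GATA3* at -0.25. The *IL4* probe was dim as well, at -5.31 and -5.84 in low gain and -5.97 and -6.22 in high gain (log2 normalised signal). *IL13* was well above background on both low-gain arrays and 1 high-gain array. Macrophage genes, 3 of 6 measured, all had a lower mean in low gain, with limma adjusted p from 0.198 to 0.405. Their summed signal was 4.52 and 4.40 in low gain and 5.64 and 5.83 in high gain, of which *CD163* made up 68.2%. *SIGLEC1* was well above background on 1 low-gain array and both high-gain arrays.

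In the remaining lists 1 gene passed the test. It was *LYZ*, the lysozyme gene, one of 3 measured among 5 crypt and Paneth cell genes, which was lower in low gain (-1.52 ± 0.10, limma adjusted p = 0.0467), while *ASCL2* and *SOX9* were at 0.53 and 0.40. T cell genes, all 7 measured, had a higher mean for 5 (*CD8A* 0.95, its other probe 0.03). For 2 the mean was lower (*CD247* -0.67, its other probe -0.86). The summed signal of all 7 was 13.4 and 13.6 in low gain and 18.4 and 16.7 in high gain, and *CD247* made up 75.3% of it. Enterocyte genes had a higher mean for 4 of 4 (*ANPEP* 0.68, *FABP2* 0.48, *APOA4* 0.44), although *FABP6* was at 0.02 ± 0.12 with overlapping groups (limma adjusted p from 0.141 to 0.931 over the 4). Smooth muscle genes had a higher mean for 3 of 4 (*MYLK* 0.56, *DES* 0.51, *CNN1* 0.48), with *ACTA2* at -0.25. The other 2 probes of *DES* were at -0.34 and -0.02, and the 3 other probes of *ACTA2* ran from -0.61 to 0.23. *DCN* was the only fibroblast gene measured (0.46). The 6 adipocyte genes had a summed signal of 3.57 and 2.70 in low gain and 4.78 and 4.88 in high gain, 51.5% of it from *FABP4*. Of these genes 3 had a lower mean, namely *FABP4* (-1.55), *PLIN1* (-1.63) and *ADIPOQ* (-0.96). The other 3 had a higher mean, namely *LEP* (0.33), *CIDEC* (0.30) and *LPL* (0.20). The *LEP* difference had an SE of 0.95, and the 4 other probes of *LPL* ran from -0.52 to 0.25. *PLIN1* was well above background on 1 low-gain array and both high-gain arrays. Endothelial genes (2 of 5 measured) were at -0.16 for *PECAM1* and 0.13 for *CDH5*, whose other probe was at -0.70. The B cell gene *CD79A* was at -0.31.

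The named genes whose signal followed *AREG* most closely were found by the distance between log2 values over the 4 arrays, after subtraction of each probe's own mean, among 2094 genes well above background on all arrays. The 5 closest to A_72_P302799 were *ITLN2*, an intelectin gene (distance 0.18), *HP*, the haptoglobin gene (0.18), *ITIH4*, an acute-phase protein gene (0.25), and the granzyme genes *GZMH* (0.28) and *GZMK* (0.29). Their differences between groups ran from 1.28 (*GZMH*) to 1.67 (*GZMK*), around that of *AREG* at 1.45. With 4 arrays in 2 groups this measure mostly selects genes with a difference of the same size. Not every probe of these genes followed, since the 2 other probes of *ITIH4* gave 0.16 and 1.35 and the 4 other probes of *HP* gave 0.81 to 1.27.

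**Figure D5:**
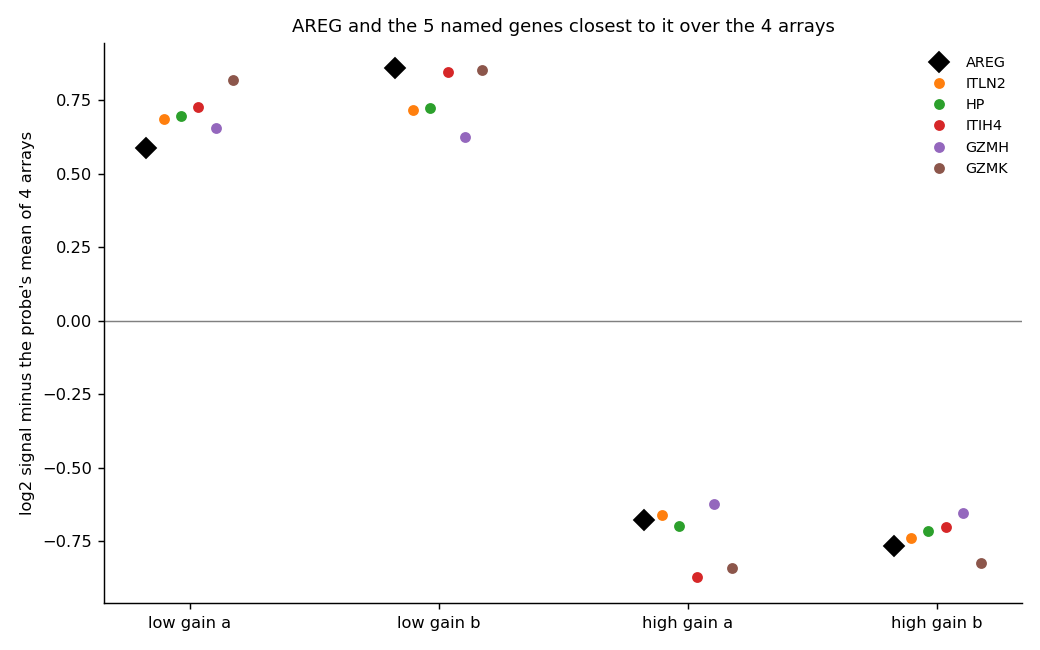
Log2 signal minus the probe's mean over the 4 arrays (vertical axis) on each array for *AREG* (diamond) and the 5 closest named genes (circles). All 6 lie above 0 on both low-gain arrays and below 0 on both high-gain arrays, and *AREG* has the lowest value on low-gain array a and the highest on low-gain array b.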

How the data were processed

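Each of 4 RNA samples, 2 per group, was labelled with Cy3 and hybridised to 1 array. Per the file headers, the intensity values of each spot were made with Agilent Feature Extraction 10.7.3.1. Log2 values of these arrays, deposited by the authors without a stated method in the sources used here, were compared with them. On spots well above background they followed log2 processed signal with slopes of 1.005 to 1.013 and were not centred per gene (column medians 5.62 and 5.59 in low gain, 5.67 and 5.60 in high gain). They served only as an alternative.

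Outlier-flagged spots were removed, repeat spots of a probe averaged, and 48 probes with a missing value dropped. Gene names came from RefSeq accessions matched without versions to an NCBI table of Sscrofa11.1 (5461 probes). The files name no build, so coordinates are not given. The probe with the highest mean signal stood for a gene. The test was limma's (version 3.58.1, lmFit and eBayes, under R 4.3.3), low gain minus high gain. In simulated arrays with 33265 probes the fit recovered 36 of 50 probes changed by 3 (log2). That size is larger than every member difference, so it does not give the recovery at the sizes described here. Changes smaller and larger than the *AREG* differences were simulated as well, and their recovery is not given here. An exact permutation test of a single probe could not go below 0.333 (two-sided).

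The members, lists and tests were chosen with earlier results of these data known. The rule for named genes gave every member probe, the 3 largest differences of each pathway list and up to 3 of each marker list. *FOS* and further markers were added after their values were seen. Alternatives changed background correction, normalisation, the filter on dim probes, the prior variance, the letter as a block and the arrays used. The mean pixel signal is not among the columns used, so normexp ran on the median signal. Having 4 arrays limits the precision throughout.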

Additional observations from a re-analysis of the deposited data

How the results depend on the processing

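Of 103 member differences under alternatives, 91 moved by less than the spread between arrays of a group. These 91 include the fits with other filters, the trend or the block, which cannot move a difference. Fits without 1 array cannot move it by more than this spread either, because the spread is made of the same gaps between arrays. The count is therefore largely fixed in advance. Larger moves came mainly with normexp. No probe of *AREG*, *HBEGF* or *EGFR* changed direction. This too is partly fixed, since filters, trend and block move nothing. Groups that do not overlap also keep their direction without 1 array. The 6 differences that did change direction were of *EGF* A_72_P442781 (3), *EGF* A_72_P146321 (2) and *TGFA* (1). Probes past the test, 80 in the fit reported (32 higher in low gain), numbered 1105 (666 higher) with normexp and bright backgrounds replaced, 0 with normexp and backgrounds as deposited (added after seeing the data), 163 with the median of each array, 12 without a filter on dim probes, 0 with signal required on all 4 arrays, 1250 (751 higher) with the intensity trend and 0 to 37 without 1 array. They numbered 69 with quantile normalisation and 99 with the authors' values. The member probes past the test, 1 in the fit reported, numbered 2 (both of *AREG*) with the intensity trend and with normexp after replacing bright backgrounds, and 0 with backgrounds as deposited, without the filter, with signal required on all 4 arrays and without any 1 array. Pathway genes past the test, 0 in the fit reported, numbered 1 with bright backgrounds replaced (*JUN*, limma adjusted p = 0.0485, range over alternatives 0.0485 to 1) and 1 with the intensity trend (*CD9*, adjusted p = 0.0285, range 0.0285 to 1), and 0 in every other alternative, the mean over the probes of a gene and the fits without 1 array included. The cause of these changes was not tested. With the letter as a replicate block, 0 probes passed over the array and 0 among the members. The differences between arrays a and b in the 2 groups correlated at -0.0292 over 31471 probes, and nothing in the labels pairs them. A fit without 1 array assumes that the lone array of a group varies like the others. The planned normexp on the mean signal was not run. For the ligands, dim signal limits how well a size is known.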
